A study of Mus musculus with 6 samples.

Results

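Podocytes are the epithelial cells that cover the outside of the glomerular capillaries. Their foot processes are joined by the slit diaphragm, a protein filter that keeps plasma proteins out of the urine. Structural proteins of the slit and of the cell surface, an actin cytoskeleton in the foot processes, and a set of nuclear factors that hold the cells in a non-dividing, differentiated state are known as the hallmarks of this cell type. The 8 genes described here were Nphs1, Podxl, Ptpro, Synpo, Plce1, Wt1, Tcf21 and Cdkn1c. They were found as all probe sets whose platform annotation gives 1 of these symbols alone, which were 12 of 45037 probe sets (8 of 18193 genes). The genes were chosen because their values were already known to be higher in the mice with the megalin domain, so their differences between the groups are given as a description with no test. Of the 8 genes, 4 had 1 probe set and 4 had 2.

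The study measured whole kidney RNA of 6 male mice aged 10 weeks, with 1 Affymetrix array per mouse. Megalin takes up filtered proteins in the proximal tubule, and the study asked whether its soluble intracellular domain changes the function of that segment. The ICD group was 3 mice that expressed the intracellular domain of megalin, described in the study's design as heterozygous, and the WT group was 3 wild type littermates. In the labels the domain is called soluble for ICD 1 and is given without that word for ICD 2 and ICD 3. The strain, the promoter and the cells in which the domain was made are not given in the sources used here. Replicate arrays are separate animals, and 3 per group limits the precision.

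The defining kidney transcript Umod, which encodes the urinary protein uromodulin, read 14.33 to 14.42 on the ICD arrays and 14.32 to 14.43 on the WT arrays (log2 values). Some solute transporters of the proximal tubule were low on WT 3: Slc5a12, a lactate transporter of the brush border, read 9.30, 9.27 and 10.47 on the ICD arrays, against 10.35, 9.82 and 4.12 on the WT arrays. WT 3 therefore stands apart, and where it moved the difference of a named gene at its brightest probe set by over 1.5 times, that value without it is also given. Lrp2, the megalin gene, read 12.25, 12.37 and 12.26 at probe set 1427133_s_at on the ICD arrays, against 13.01, 12.97 and 12.13 on the WT arrays. The difference was -0.41 (limma adjusted p = 0.891), and -0.70 without WT 3, where all ICD arrays lay below the remaining WT arrays. At 1452320_at it was 0.0079 (adjusted p = 0.998; -0.017 without WT 3) and at 1445901_at 0.12 (adjusted p = 0.981; -0.011 without WT 3). Over the whole table, 0 of 45037 probe sets (0%) passed limma's test at an adjusted p under 0.05, and 2641 had an unadjusted p under 0.05 (5.86%).

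Windows of RefSeq sequence (build GRCm38.p6) were used for 4 of the 8 genes. The remaining genes were left out of this part, so the windows do not survey all 8. Each window runs 5′ to 3′ from 250 bases before to 50 bases after an annotated start. For Ptpro and Tcf21 this start is where the RefSeq span of the gene begins. The windows of Nphs1 and Plce1 lie inside the gene spans, which begin at 30458207 for Nphs1 and 38481034 for Plce1. These 2 windows are therefore not sequence upstream of the whole gene. The 4 windows were not chosen by the order of the arrays. At the bright probe sets of Nphs1 and Ptpro all ICD arrays read higher than all WT arrays, and at those of Tcf21 and Plce1 the groups overlapped. Capitals mark matches, on either strand, to 4 motifs: GTGGGAG (a core bound by Wt1), CANNTG (the E-box, bound by factors of the family of Tcf21), TAATTA (a homeobox core of the kind bound by Lmx1b) and TGTTTAC (a forkhead core of the kind bound by Foxc2).

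Nphs1 promoter, chr7:30459808-30460107, plus strand: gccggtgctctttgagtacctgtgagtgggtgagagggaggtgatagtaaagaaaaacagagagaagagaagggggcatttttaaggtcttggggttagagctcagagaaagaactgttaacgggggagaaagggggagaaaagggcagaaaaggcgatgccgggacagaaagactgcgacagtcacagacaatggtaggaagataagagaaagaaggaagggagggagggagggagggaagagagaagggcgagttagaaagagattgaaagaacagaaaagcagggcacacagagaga
Ptpro promoter, chr6:137252049-137252348, plus strand: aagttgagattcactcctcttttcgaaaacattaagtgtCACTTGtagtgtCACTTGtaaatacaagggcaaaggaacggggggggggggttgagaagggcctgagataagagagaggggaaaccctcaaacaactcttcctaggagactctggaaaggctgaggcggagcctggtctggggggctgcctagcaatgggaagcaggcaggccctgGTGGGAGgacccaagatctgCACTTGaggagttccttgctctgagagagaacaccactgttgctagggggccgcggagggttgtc
Tcf21 promoter, chr10:22820094-22820393, minus strand: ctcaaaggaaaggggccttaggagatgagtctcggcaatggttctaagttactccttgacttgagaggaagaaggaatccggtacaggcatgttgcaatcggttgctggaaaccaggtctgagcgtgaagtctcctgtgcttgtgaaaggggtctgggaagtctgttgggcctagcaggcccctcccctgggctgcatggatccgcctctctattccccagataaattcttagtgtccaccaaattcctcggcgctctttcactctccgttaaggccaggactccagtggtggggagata
Plce1 promoter, chr19:38523947-38524246, plus strand: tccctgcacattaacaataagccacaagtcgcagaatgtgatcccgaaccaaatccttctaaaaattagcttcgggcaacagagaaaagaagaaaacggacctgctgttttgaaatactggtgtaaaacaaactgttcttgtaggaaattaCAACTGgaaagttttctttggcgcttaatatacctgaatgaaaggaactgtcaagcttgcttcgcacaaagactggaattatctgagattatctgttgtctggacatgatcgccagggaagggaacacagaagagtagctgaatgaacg

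The Ptpro window held 1 match to the Wt1 core, which begins 35 bases before the start (position -35), and 3 E-boxes. The Plce1 window held 1 E-box. The windows of Nphs1 and Tcf21 matched none of the 4 motifs, which says only that these letters are not in these windows. Among 32851 windows of the same length, 9.73% held the Wt1 core, 72.3% an E-box, 5.29% the homeobox core and 3.65% the forkhead core. The matches in the capitals did not overlap each other.

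At the brightest probe set of each gene, all 8 genes had a higher mean in ICD kidneys. The differences (ICD minus WT, log2) lay between 0.14 and 0.55 with a median of 0.38, which is 1.10-fold to 1.47-fold with a median of 1.30-fold. Over all 18193 genes the median difference was -0.012, and 43.9% of genes had a difference above 0. At 6 of the 8 genes the 3 ICD arrays all read higher than the 3 WT arrays, a pattern found for 3.66% of all genes. As the genes were chosen on this contrast, nothing is read from these counts. In whole kidney RNA, more podocytes and more RNA per podocyte cannot be told apart. Nor can either be told from RNA of other cells or from another makeup of the tissue pieces.

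**Figure D1:**
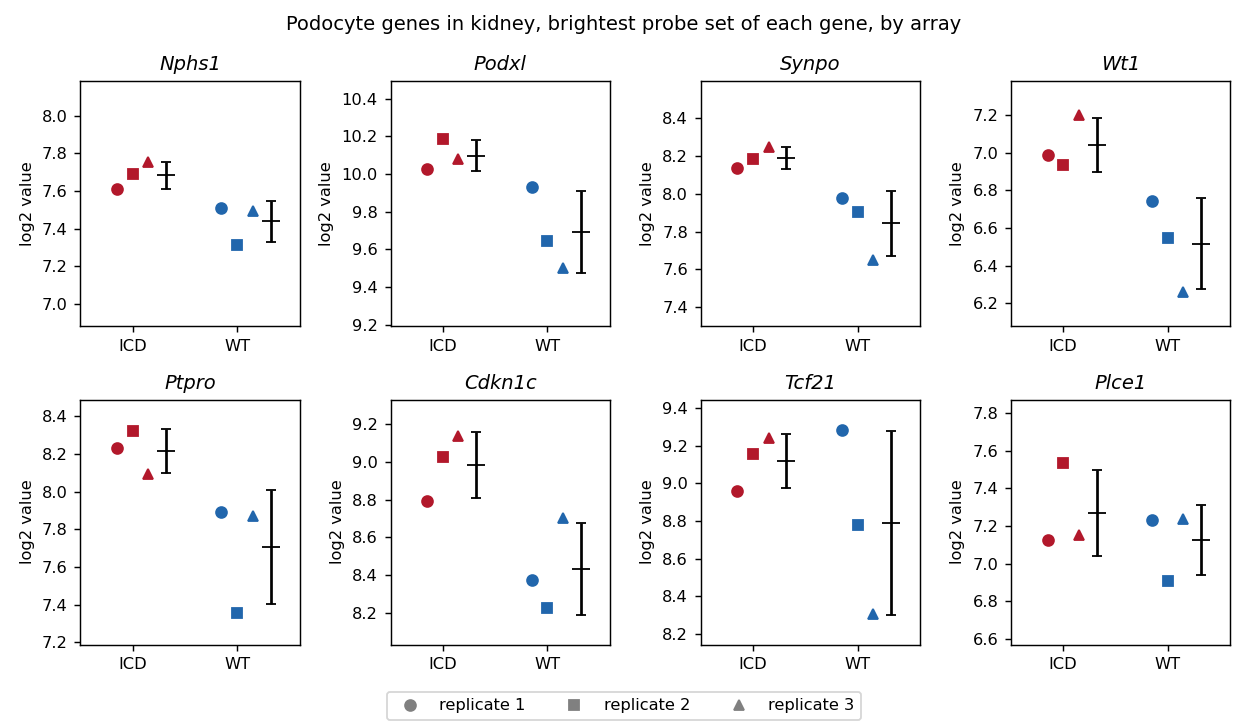
Log2 values (vertical axes, each spanning 1.3 units) of the 8 genes at their brightest probe set in ICD (left) and WT (right) kidneys; symbols are single arrays and black bars the mean ± SD of 3 arrays. The groups are apart for 6 genes and overlap for Tcf21 and Plce1.

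Among the proteins of the slit and the cell surface, Nphs1 encodes nephrin, the transmembrane protein that spans the slit. Its probe set 1422142_at read 7.61, 7.69 and 7.75 (log2) on the ICD arrays, against 7.51, 7.31 and 7.50 on the WT arrays. The lowest ICD array lay just above the highest WT array, WT 1, with no overlap. The difference was 0.24 ± 0.080 (SE), the second smallest of the 8.

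Podxl encodes podocalyxin, the negatively charged coat protein that keeps foot processes apart. Its bright probe set 1448688_at read 10.03, 10.19 and 10.08 on the ICD arrays, against 9.93, 9.65 and 9.50 on the WT arrays. WT 1 came close to the ICD arrays and WT 3 was lowest. The difference was 0.40 ± 0.11 (SE). The second probe set, 1417396_at, read 6.62, 6.69 and 6.76 on the ICD arrays, against 6.51, 6.46 and 6.39 on the WT arrays. The groups did not overlap there either, and the difference was 0.24 ± 0.071. Podxl was the only gene of the 4 with 2 probe sets at which both kept the groups apart.

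Ptpro encodes a receptor tyrosine phosphatase of the apical podocyte membrane, also known as GLEPP1. Probe set 1417676_a_at read 8.23, 8.32 and 8.09 on the ICD arrays, against 7.89, 7.36 and 7.87 on the WT arrays. WT 2 was far below the other arrays, and the groups did not overlap. The difference of 0.51 ± 0.14 (SE) was 0.34 without WT 2. The dim second probe set 1425863_a_at read 4.87, 5.41 and 4.92 on the ICD arrays, against 5.06, 4.66 and 4.64 on the WT arrays, with WT 1 above ICD 1 and ICD 3. Its difference was 0.28 ± 0.16.

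Synpo encodes synaptopodin, an actin-associated protein of the foot processes. Its bright probe set 1434089_at read 8.14, 8.18 and 8.25 on the ICD arrays, against 7.98, 7.91 and 7.65 on the WT arrays. All ICD arrays were higher, and WT 3 was lowest. The difference was 0.35 ± 0.095 (SE). The second probe set, 1427045_at, did not follow it: it read 6.17, 6.09 and 6.05 on the ICD arrays, against 6.20, 6.15 and 6.18 on the WT arrays. There the groups overlapped and the difference was -0.072 ± 0.067, the only one below 0 among the 12 probe sets. With the mean of both probe sets the Synpo difference was 0.14.

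Plce1 encodes phospholipase C epsilon, a signalling enzyme whose loss causes a childhood nephrotic syndrome in humans. Probe set 1452398_at read 7.12, 7.53 and 7.15 on the ICD arrays, against 7.23, 6.91 and 7.24 on the WT arrays. Only ICD 2 was above all WT arrays, and the groups overlapped. The difference of 0.14 ± 0.13 (SE) was the smallest of the 8. It was 0.013 without ICD 2, 0.036 without WT 2 and 0.22 without ICD 1.

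Of the nuclear proteins, Wt1 is the zinc finger transcription factor that the podocyte keeps throughout life. Its probe set 1425995_s_at read 6.99, 6.93 and 7.20 on the ICD arrays, against 6.74, 6.55 and 6.26 on the WT arrays. The groups did not overlap, and WT 3 was lowest. The difference was 0.52 ± 0.13 (SE). The suffix _s_at marks a probe set whose probes can match more than 1 transcript.

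Cdkn1c encodes p57, a cyclin-dependent kinase inhibitor found in mature, non-dividing podocytes. Probe set 1417649_at read 8.79, 9.03 and 9.14 on the ICD arrays, against 8.37, 8.23 and 8.70 on the WT arrays. ICD 1 lay just above WT 3, and the groups did not overlap. The difference of 0.55 ± 0.13 (SE) was the largest of the 8.

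Tcf21 is a basic helix-loop-helix factor of podocytes that is also made by interstitial cells of the kidney. Its bright probe set 1417447_at read 8.96, 9.16 and 9.24 on the ICD arrays, against 9.28, 8.78 and 8.31 on the WT arrays. WT 1 was the highest array of all 6 and WT 3 the lowest. The difference of 0.33 ± 0.21 (SE) was 0.088 without WT 3 and 0.58 without WT 1. The second probe set 1458887_at read 6.12, 5.77 and 6.25 on the ICD arrays, against 5.84, 5.86 and 5.97 on the WT arrays, with ICD 2 lowest of all. Its difference was 0.16 ± 0.12.

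Over the 12 probe sets, 11 had a positive difference and 7 had all ICD arrays above all WT arrays, where 5.44% of all probe sets did. Of the 4 second probe sets, 1 kept the groups apart. The spread was wider among WT mice for 7 of the 8 genes: SDs at the brightest probe sets were 0.057 to 0.23 in ICD kidneys and 0.11 to 0.49 in WT kidneys. Over all genes 52.2% had the larger SD in WT kidneys.

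**Figure D2:**
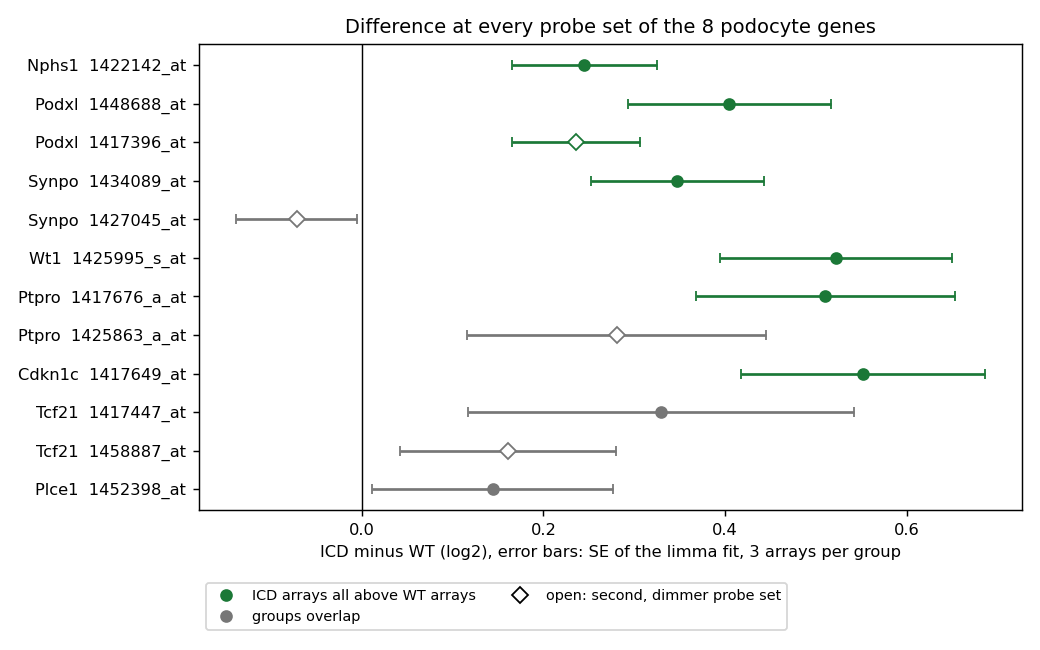
Difference between ICD and WT kidneys (horizontal axis, log2, ICD minus WT) at all 12 probe sets of the 8 genes; points are estimates of the limma fit, bars their SE, and open symbols the dimmer second probe sets. The second Synpo probe set is the only one below 0.

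The animals of 1 genotype also differed among themselves, and the 8 genes did not vary as 1 group. After each value was set against the mean of its own genotype, the correlations between pairs of the 8 genes over the 6 arrays (28 pairs, given as a description) ran from -0.50 to 0.94 with a median of 0.26, and 19 were above 0. Synpo and Tcf21 had r = 0.94, Podxl and Tcf21 0.94, Synpo and Wt1 0.93, and Wt1 and Tcf21 0.90. These 4 genes were highest on WT 1 and lowest on WT 3 among the WT arrays. Nphs1, Ptpro, Cdkn1c and Plce1 were lowest on WT 2 instead, and Ptpro and Plce1 had r = 0.80, Nphs1 and Cdkn1c 0.78. Between Synpo and Cdkn1c r was -0.50. The points share their array, and the split into 2 sets of 4 was made after the values were seen.

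The first set of 4 had profiles close to those of markers of other cells. Within genotypes Podxl had r = 0.89, Tcf21 r = 0.99 and Wt1 r = 0.95 with the mean of 12 markers of glomerular endothelium. Synpo had r = 0.98 with the mean of 10 markers of mesangium and smooth muscle and 0.97 with the mean of 12 proximal tubule markers. The proximal tubule score leans on WT 3, where it lay at -0.52 relative to its genotype mean and Synpo at -0.20. Slc5a12, a marker in that score, read 4.12 on WT 3, against 10.35 on WT 1 and 9.82 on WT 2. These correlations rest on few arrays, and the share of all genes reaching such values is not given here. The second set had other profiles. With the endothelial markers Ptpro had r = 0.0042, Plce1 0.0058, Nphs1 0.31 and Cdkn1c -0.27. Plce1 had r = 0.89 with the mean of 11 markers of the medullary limb and duct and 0.78 with that of 7 parietal epithelium markers, and Cdkn1c had 0.76 with the parietal markers. Whether the makeup of the tissue pieces has a part in these patterns was not tested.

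**Figure D3:**
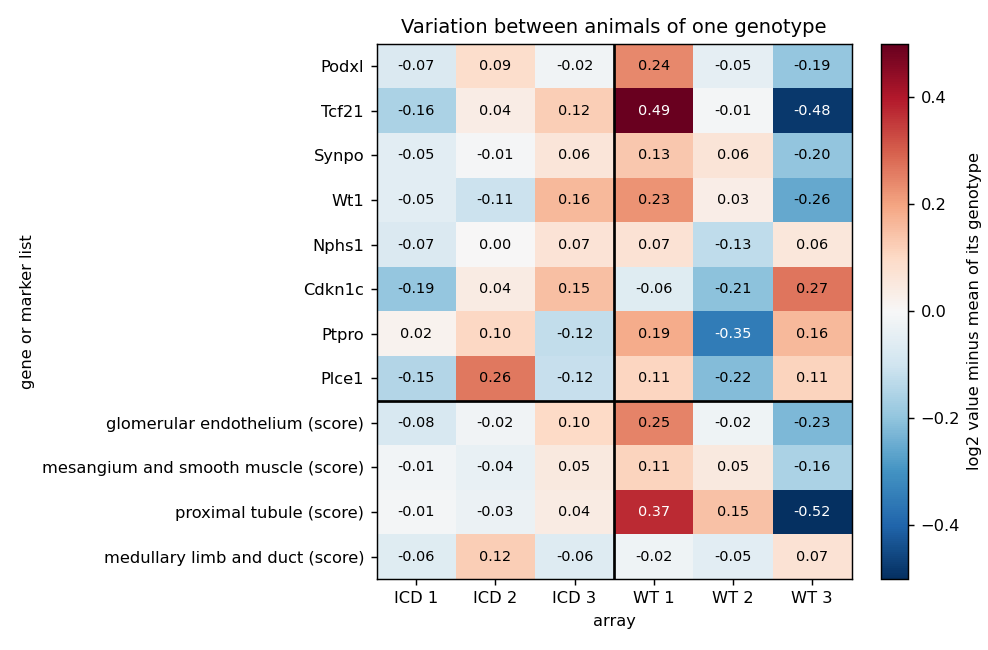
Log2 values of the 8 genes and mean scores of 4 marker lists (rows) on each array (columns, ICD left of WT), each minus the mean of its genotype; red is above and blue below that mean. Podxl, Tcf21, Synpo and Wt1 share the high WT 1 and low WT 3 of the endothelial, mesangial and proximal tubule scores, while the other 4 genes are lowest on WT 2.

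The mean of the 8 genes within genotypes follows some of them more than others. A gene's r with the mean of the other 7 ran from -0.031 for Cdkn1c to 0.82 for Podxl. The genes most like the mean of the 8 within genotypes, among 11691 genes in the brighter part of the table, were Ripply3 (r = 0.996), Mettl1 (0.995), Agap2 (0.995), Utp11 (0.994) and Scn7a (0.991), over 6 arrays. A likeness of at least 0.9 was reached by 169 of these genes (1.45%), and 279 had r of at most -0.9. Their own differences between ICD and WT kidneys were small: Ripply3 differed by 0.060, Scn7a by 0.031, Mettl1 by -0.013, Utp11 by -0.034 and Agap2 by -0.045, each with overlap between the groups. Without WT 3 these differences lay between -0.084 for Agap2 and 0.0098 for Scn7a.

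Further podocyte genes were taken from 6 lists ordered by role, of which 62 of 69 genes had a probe set of their own. Their differences were centred near 0: 37 of 62 had a higher mean in ICD kidneys (59.7%, against 43.9% of all genes), with a median difference of 0.015, against a median of 0.38 for the 8 genes. The 8 were chosen on this contrast, so their larger median was set in advance and nothing is read from it. Of the 62, 0 passed limma's test over all probe sets (adjusted p 0.718 to 1.00), and 4 had an unadjusted p under 0.05, all higher, where 3.94% of all genes had such a p in either direction. All ICD arrays lay above all WT arrays for 8 of the 62 genes (12.9%) and below them for 2 (3.66% and 5.44% of all genes). After the arrays were quantile normalized again, or their medians subtracted, that count was 4. Without WT 3 the median was 0.00053. The lists go by role and also hold genes made by most kidney cells, so these medians are not those of podocyte RNA alone. The other 7 genes of the lists were not analysed here.

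Of the slit diaphragm proteins and their adaptors, 8 of 14 had a higher mean and the median was 0.014. Ddn, which encodes dendrin, a partner of nephrin, read 7.50, 7.40 and 7.53 on the ICD arrays, against 7.31, 7.09 and 7.26 on the WT arrays, with no overlap. Its difference of 0.26 (95% interval 0.071 to 0.44) did not pass limma's test (adjusted p = 0.725). Kirrel, a nephrin-like protein that binds nephrin across the slit, read 6.996, 7.095 and 7.054 on the ICD arrays, against 6.953, 6.876 and 6.850 on the WT arrays, again with no overlap. Its difference was 0.16 (interval 0.0013 to 0.31, limma adjusted p = 0.849), and its other probe set differed by 0.012.

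The other 12 genes of this list differed by -0.13 to 0.19. Fyn, the kinase that phosphorylates nephrin, differed by 0.19 (interval -0.036 to 0.42; 0.092 without WT 3). The scaffold Tjp1 differed by 0.096 (0.058 without WT 3), the protocadherin Fat1 by 0.059 (0.11 without WT 3) and the adaptor Nck1 by 0.022. The polarity kinase Prkci differed by 0.034 (0.062 without WT 3) and the cation channel Trpc6, a dim probe set, by 0.0073 (0.033 without WT 3). Negative differences belonged to Kirrel3 (-0.027), the nephrin adaptor Cd2ap (-0.058), Nck2 (-0.060), the ephrin Efnb1 (-0.080; -0.15 without WT 3), the polarity protein Pard3 (-0.12) and the scaffold Iqgap1 (-0.13). All ICD arrays lay above all WT arrays for Tjp1 and Nck1, and below them for Iqgap1. At Nck1, ICD 1 (8.26095) and WT 1 (8.26082) nearly met. The sign turned at the further probe sets of Nck1 (-0.11 and -0.037), Nck2 (0.082 and 0.097) and Prkci (-0.036). Signs were mixed for Iqgap1 (-0.25 to 0.078), Efnb1 (-0.043 to 0.061) and Cd2ap (-0.082 to 0.023). Further probe sets of Fyn, Kirrel3 and Pard3 kept the sign. Several genes of this list, such as Tjp1, Iqgap1 and Nck1, are made by most kidney cells. Limma adjusted p was 0.895 or higher for each of these 12 genes.

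The other podocyte groups gave medians between -0.0096 and 0.045. Among transcription factors 4 of 8 had a higher mean, and the 2 with the largest differences went opposite ways. Foxc2, a forkhead factor, differed by 0.21 (interval -0.19 to 0.61, limma adjusted p = 0.952; 0.059 without WT 3), and Lmx1b, a homeobox factor, by -0.13 (interval -0.29 to 0.027, adjusted p = 0.896), with its second probe set at 0.18. Of 14 cytoskeletal genes 6 had a higher mean, led by Ezr, which ties podocalyxin to actin (0.11), and the intermediate filament gene Nes (0.11), each with a further probe set below 0. Of 8 surface genes 5 had a higher mean. Pdpn, the podocyte mucin podoplanin, read 8.008, 7.914 and 8.004 on the ICD arrays, against 7.659, 7.905 and 7.700 on the WT arrays, so that ICD 2 and WT 2 nearly met. It differed by 0.22 (interval 0.031 to 0.41, limma adjusted p = 0.801), and the sulfatase Sulf1 by 0.078 (0.027 without WT 3).

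Adhesion and basement membrane genes lay nearest together, between -0.097 for the matrix ligand Npnt (-0.15 without WT 3) and 0.067 for the collagen chain Col4a3 (0.12 without WT 3), and 7 of 10 had a higher mean. Of secreted and signalling genes 7 of 8 did. Sema3g, a semaphorin secreted by podocytes, read 8.69, 8.71 and 8.62 on the ICD arrays, against 8.44, 8.42 and 8.06 on the WT arrays. Its groups did not overlap, and its difference was 0.37 (interval 0.13 to 0.62, limma adjusted p = 0.718), or 0.25 without WT 3. This was the largest of the 62 at the brightest probe sets. The receptor kinase Tyro3 had the lowest there, -0.21 (interval -0.48 to 0.063, limma adjusted p = 0.912). Further probe sets went beyond both. That of the surface gene Thsd7a differed by 0.56, against 0.056 at its brightest probe set (0.012 without WT 3). One of Iqgap1 differed by -0.25.

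**Figure D4:**
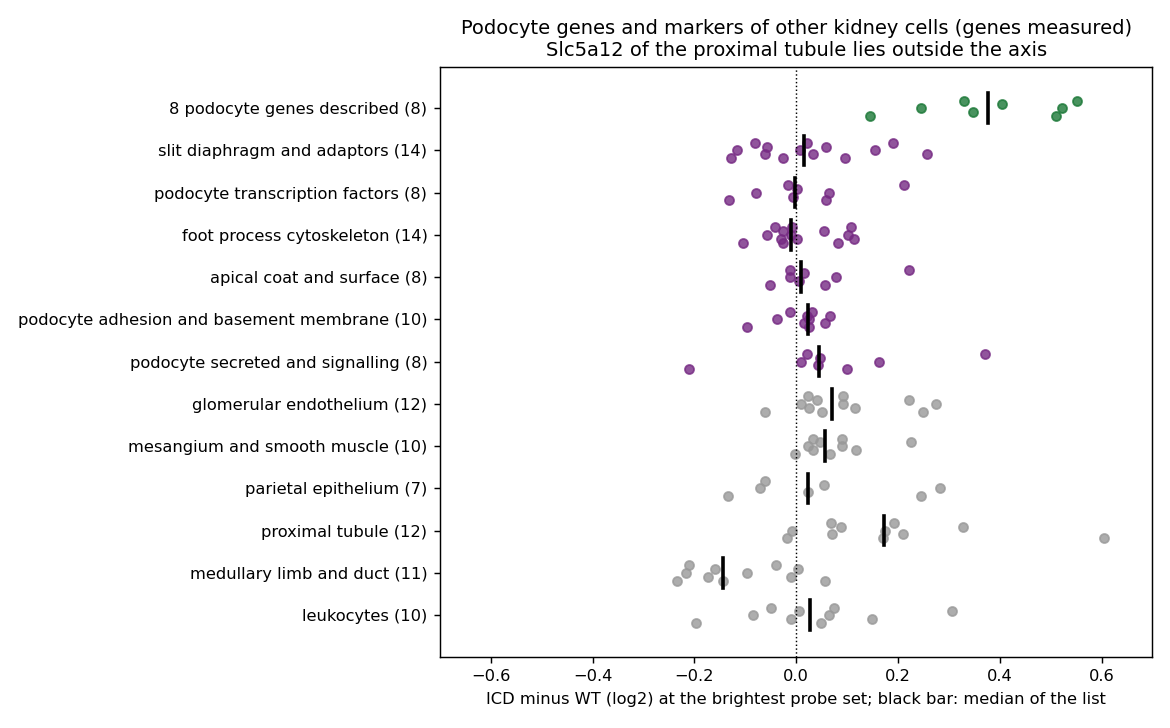
Difference between ICD and WT kidneys (horizontal axis, log2, ICD minus WT) at the brightest probe set of each gene, by list (rows, with the number of genes measured); points are genes and black bars list medians. The 8 genes, which were chosen on this contrast, lie between 0.14 and 0.55, and the medians of the other podocyte lists between -0.0096 and 0.045.

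Markers of other kidney cells were read beside the podocyte genes, with the mean of a list on each array, relative to all arrays, as its score. The score of the 8 genes was 0.099, 0.24 and 0.23 on the ICD arrays, against -0.017, -0.30 and -0.26 on the WT arrays. For glomerular endothelium 11 of 12 markers had a higher mean (median 0.071), but the score ran from -0.033 to 0.15 on ICD arrays and from -0.27 to 0.20 on WT arrays, with WT 1 highest. The endothelial median was -0.041 without WT 3 and 0.23 without WT 1. For mesangium and smooth muscle 9 of 10 had a higher mean (median 0.056, and -0.029 without WT 3), with scores of -0.00031 to 0.084 on ICD arrays and -0.19 to 0.074 on WT arrays. For parietal epithelium, which lines the capsule of the glomerulus, 4 of 7 did (median 0.023, and -0.048 without ICD 2), with scores of -0.036 to 0.10 on ICD arrays and -0.068 to 0.055 on WT arrays.

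Proximal tubule markers had a higher mean for 10 of 12 (median 0.17, and 0.041 without WT 3), with scores of 0.11 to 0.18 on ICD arrays and -0.66 to 0.23 on WT arrays. Markers of the medullary limb and duct had a lower mean for 9 of 11 (median -0.14, and -0.093 without WT 3), with scores of -0.12 to 0.068 on ICD arrays and 0.0037 to 0.13 on WT arrays. Leukocyte markers were higher for 6 of 10 (median 0.027, and -0.076 without ICD 3), with scores of -0.13 to 0.19 on ICD arrays and -0.11 to 0.050 on WT arrays. The groups overlapped in each of these 6 scores, and their part in the podocyte differences was not tested. Without WT 3 the median difference of the 8 podocyte genes was 0.29, and 6 of 8 had all ICD arrays above the remaining WT arrays, as had 7.38% of all genes. Nothing is read from this count either.

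Single markers of these cells did not pass limma's test (0 of 62, and 6 at an unadjusted p under 0.05, where 3.94% of all genes were). In each list the gene with the largest difference was Plat of the endothelium, a plasminogen activator (0.27; 0.16 without WT 3), Rgs5 of mural cells (0.23; 0.14 without WT 3, with further probe sets from -0.66 to 0.52), the claudin Cldn1 of parietal cells (0.28, with further probe sets from -0.049 to 0.24), Slc5a12 (1.58, and -0.41 without WT 3), the vasopressin receptor Avpr2 of the duct (-0.23) and the antigen presentation chaperone Cd74 (0.31; 0.11 without ICD 3 and 0.19 without WT 3). Limma adjusted p lay between 0.714 for Avpr2 and 0.960 for Slc5a12.

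The chromosomal neighbours of the 8 genes were measured as well, the nearest gene on either side with a probe set of its own. Of these 16 genes 5 had a higher mean in ICD kidneys, with a median of -0.035 and a range of -0.28 to 0.12. At none of them did all ICD arrays lie above all WT arrays, and at Eps8, on the far side of 1 further gene from Ptpro, they all lay below (-0.28, limma adjusted p = 0.714). None passed limma's test, and Eps8 alone had an unadjusted p under 0.05. Antisense transcripts of 2 of the genes were among them: Nphs1os differed by 0.0063 (0.033 without WT 3; interval -0.21 to 0.22, limma adjusted p = 0.999) and Wt1os by -0.071 (interval -0.26 to 0.12, adjusted p = 0.979). The remaining neighbours were Aplp1 (0.12) before Nphs1, Mkln1 (-0.038) and 1700012A03Rik (-0.097) beside Podxl, Myoz3 (-0.033) and Rps14 (0.022) beside Synpo, Them7 (-0.14) after Wt1, and Rerg (-0.010) before Ptpro. Beside Cdkn1c, an imprinted gene, lay 4933417O13Rik (-0.082) and Slc22a18 (-0.062), beside Tcf21 Tbpl1 (0.091) and Eya4 (0.11), and beside Plce1 Slc35g1 (-0.036) and Noc3l (-0.020). Without WT 3 the difference of Them7 was 0.027 and that of Rerg 0.0060, so that both turned above 0. It was 0.071 for Aplp1, 0.0085 for Rps14, 0.039 for Tbpl1, -0.11 for Myoz3, -0.11 for Slc35g1, -0.13 for 4933417O13Rik and -0.10 for Slc22a18.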

How the data were processed

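Values are log2 expression per probe set as deposited by the authors. RMA is named in the submitters' processing notes; it corrects background, forces 1 distribution on all arrays and summarises probes, which compresses differences of dim probe sets. Its version, the chip definition and any filter are not given in the sources used here. Array medians were 6.62 to 6.66. Control rows (64 of 45101) were left out. The annotation gave 1 symbol for 34945 probe sets, several for 932 and none listed for 9160; 34741 were found in RefSeq by Entrez identifier and 0 symbols changed.

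The groups were compared in R 4.3.3 with limma 3.58.1 (genotype as the only term, 2-sided, Benjamini-Hochberg over 45037 probe sets), checked on simulated data. Each gene was represented by its probe set with the highest mean, and levels were not compared between probe sets. With 3 animals against 3, the smallest 2-sided p of an exact permutation test is 0.1, and no such test was run. The 8 genes and all lists were chosen with earlier results of these data known. Named genes were the 8 genes, all measured slit diaphragm genes, the 2 largest differences of each other podocyte list and the largest of each other cell list, chromosomal neighbours, the 5 genes most alike, and Lrp2. Thsd7a was named as well, for its further probe set. Alternatives were single arrays left out, quantile normalization or median subtraction, bright probe sets only, a trended robust prior, array weights, a replicate block, and other choices among probe sets.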

Additional observations from a re-analysis of the deposited data

How the results depend on the processing

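Across single arrays left out, the median difference of the 8 genes lay between 0.29 (without WT 3) and 0.52 (without WT 1). The number of their 12 probe sets with all ICD arrays above all WT arrays lay between 7 and 9. Over all probe sets that order held for 8.91% (without ICD 1) to 11.3% (without WT 1), against 5.44% with all arrays. As the genes were chosen on this contrast, nothing is read from these counts. Other settings gave medians of 0.28 (all probe sets of a gene averaged) to 0.38, and a count of 7 where all 12 probe sets entered. With bright probe sets only, 8 of the 12 remained and the count was 6, where 6.47% of the bright probe sets had that order. No single gene's difference turned negative in the 112 alternatives run, although that of Synpo was 0.14 with the mean of its probe sets. The parietal epithelium median ranged from -0.048 to 0.073 without single arrays. Limma called 0 to 1 probe sets of the whole table without single arrays and 1 with a trended and robust prior, none of them of the 8 genes. Same-numbered arrays did not deviate together (correlations of -0.047 to 0.0077 over all probe sets). With the replicate number as a block, 0 probe sets were called, and 3 of the 62 other podocyte genes had an unadjusted p under 0.05, against 4 without it. With 3 animals per group the median SE over all genes was 0.082. Without the block, the limma interval included 0 for all of the 62 genes except the 4 with an unadjusted p under 0.05.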
